A study of Mus musculus with 5 samples.

Results

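The isocitrate dehydrogenase genes of the mouse are Idh1, Idh2, Idh3a, Idh3b and Idh3g. They were taken by name, 5 of 21883 protein-coding genes on assembled chromosomes, and every chromatin immunoprecipitation (ChIP-seq) peak inside each gene or within 50 kb of it was collected. Earlier results of the same data were known when these genes were grouped, and Idh1 was singled out by measured values, selected on the presence of a peak at its boundary in each c-Maf antibody library, so the values of those peaks are given as a description and with no test.

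Isocitrate dehydrogenases convert isocitrate to alpha-ketoglutarate. The IDH3 enzyme, built from the products of Idh3a, Idh3b and Idh3g, is the NAD-dependent form that drives the citric acid cycle in mitochondria. The product of Idh2 is also mitochondrial but yields NADPH, and the product of Idh1 does the same in the cytosol and in peroxisomes. In macrophages, isocitrate dehydrogenase activity and the alpha-ketoglutarate it makes are studied as part of the metabolic change that goes with activation.

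The libraries came from C57Bl/6 bone marrow macrophages grown in culture. The cell type label calls them polarized to M2, the alternative state, whereas every title carries M0, which is not explained. Chromatin fixed with formaldehyde was precipitated in 2 libraries with an antibody against c-Maf, a transcription factor of the basic leucine zipper class (c-Maf libraries 3 and 4), and in 2 with normal rabbit immunoglobulin as isotype control (isotype libraries 3 and 4). A single input library, also numbered 4, was the control of all 4 peak calls and brings the series to 5 samples. The design text calls the numbers biological replicates, and whether equal numbers share an animal is not stated. Peak lists hold no expression values, so the cell type was not checked against marker genes here.

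The 4 peak lists differed in length far more than the libraries did in depth. After duplicate filtering, tags numbered 22017759 in c-Maf library 3, 21655683 in c-Maf library 4, 21833446 in isotype library 3 and 21779401 in isotype library 4. The lists of c-Maf libraries 3 and 4 held 23434 and 17620 peaks, and those of isotype libraries 3 and 4 held 58732 and 15568. The median summit held 6 tags in each c-Maf list, 4 in isotype list 3 and 5 in isotype list 4, so most peaks carry a large counting error. Below, tags are whole sequence reads stacked at a summit, recovered from the authors' scaled pileup, with exact Poisson 95% intervals that cover counting error only. Fold enrichment is the authors' ratio of the summit to the local input level, with 1 added to both, and q is the authors' p-value adjusted within a list.

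The boundary peaks of Idh1 lay at its annotated start. Idh1 spans 65158616 to 65186479 on chromosome 1 (mm10 throughout) and is read on the minus strand, so that its start is the higher coordinate. The 300 bases around this start are shown first, from RefSeq (GRCm38.p6, the coordinates of mm10), because both peaks lie within them. The window of Idh2 is shown because it is the mitochondrial counterpart with the same cofactor, and that of Idh3g because, like Idh1, it faces the start of another gene. The only listed Idh2 start, 80115350, lies inside the gene span, which ends at 80118608, so this window is not at the gene boundary. All 3 windows run from 250 bases before to 50 bases after a listed start and are written 5′ to 3′ on the minus strand, Idh1 at chr1:65186430-65186729, Idh2 at chr7:80115301-80115600 and Idh3g at chrX:73786848-73787147. Capitals mark the 84 bases under both c-Maf peaks in Idh1, and a match to the motif TGCTGA in Idh2.
Idh1: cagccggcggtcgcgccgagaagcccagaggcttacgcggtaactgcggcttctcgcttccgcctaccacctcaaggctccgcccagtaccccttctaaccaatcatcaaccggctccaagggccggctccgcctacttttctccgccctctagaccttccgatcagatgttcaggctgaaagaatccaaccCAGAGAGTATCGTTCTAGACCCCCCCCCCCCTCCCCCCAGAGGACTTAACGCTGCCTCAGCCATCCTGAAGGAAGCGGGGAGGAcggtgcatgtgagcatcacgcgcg
Idh2: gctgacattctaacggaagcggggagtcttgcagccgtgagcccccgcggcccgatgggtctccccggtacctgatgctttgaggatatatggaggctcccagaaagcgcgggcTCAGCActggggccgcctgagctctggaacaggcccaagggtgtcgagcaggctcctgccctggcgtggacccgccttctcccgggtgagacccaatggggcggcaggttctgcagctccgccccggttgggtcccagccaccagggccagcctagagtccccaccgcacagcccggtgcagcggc
Idh3g: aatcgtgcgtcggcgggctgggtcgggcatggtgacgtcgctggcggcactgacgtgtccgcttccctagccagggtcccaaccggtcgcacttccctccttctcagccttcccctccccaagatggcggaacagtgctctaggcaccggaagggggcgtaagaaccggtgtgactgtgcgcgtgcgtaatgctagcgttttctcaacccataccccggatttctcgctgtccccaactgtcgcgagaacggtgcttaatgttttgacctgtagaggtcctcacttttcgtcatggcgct

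In c-Maf library 3 the Idh1 peak ran from 65186454 to 65186582, 129 bp, and its summit held 12 tags (6.2 to 21.0). Its fold enrichment was 6.32 and its q 0.000583. In c-Maf library 4 the peak ran from 65186449 to 65186537, 89 bp, with 9 tags at the summit (4.12 to 17.1), a fold enrichment of 6.68 and a q of 0.00198. The intervals of the tags are wide and overlap, and a difference in height between the 2 libraries was not tested. The summits lay 13 bp from each other, 29 bp (c-Maf library 3) and 16 bp (c-Maf library 4) upstream of the Idh1 start. Both libraries thus placed the peak over the start itself, on the same 84 bases.

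Neither isotype library had a peak there. The nearest isotype peaks were 14.9 kb away in isotype library 3, inside Idh1, and 60.3 kb away in isotype library 4. A missing peak is not a count of 0. The weakest peaks listed held 4 tags in each c-Maf list, 3 in isotype list 3 and 4 in isotype list 4. These are the lowest counts over whole lists, and a higher local input level sets a higher threshold. Tags below the threshold of the caller could thus lie at the Idh1 start in the isotype libraries without being listed.

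The local input level at the Idh1 summit, recovered from the fold enrichment, was 1.0 tag in the call of c-Maf library 3 and 0.48 in that of c-Maf library 4. Both come from the one input library, stacked with the fragment lengths of 63 bp and 60 bp that the caller estimated for these libraries. The tags were 50 bp long, so these estimates lie near the tag length. Whether they match the precipitated fragments was not tested. The genome-wide floor of the input level was 0.499 for c-Maf library 3 and 0.475 for c-Maf library 4, so the call of c-Maf library 4 used a level next to its floor. The higher fold enrichment in c-Maf library 4 therefore goes with a lower input level and not with more tags. Without the 1 added to both parts, the ratio of summit to input would be 11.6 in c-Maf library 3 and 18.5 in c-Maf library 4. The floor rests on the human genome size setting of the authors' calls, although the cells are from mouse. A smaller setting would raise the floor, so the values of c-Maf library 4 depend on it. Values with another setting were not computed.

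Within their own lists the Idh1 peaks ranked high, but most listed peaks were weak. A q of 0.05 or smaller was held by 3.06% of peaks in c-Maf list 3 and 2.87% in c-Maf list 4. The shares were 0.42% in isotype list 3 and 2.62% in isotype list 4. By p-value the peak was at rank 107 of 23434 in c-Maf list 3, the top 0.457%, and at rank 120 of 17620 in c-Maf library 4, the top 0.681%. Among peaks touching the 300-base window of a protein-coding start, it ranked 5 of 108 in c-Maf library 3 and 3 of 61 in c-Maf library 4. The medians of those peaks were 6 tags in each list, with fold enrichments of 3.91 in c-Maf library 3 and 4.02 in c-Maf library 4.

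**Figure D1:**
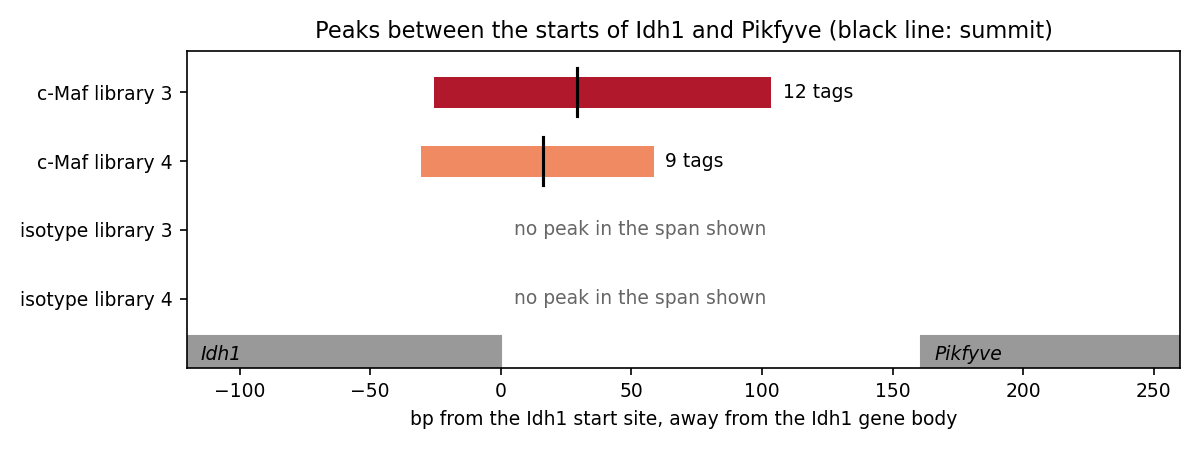
Extent (bars) and summit (black lines) of each peak around the start of Idh1, in bp from the start with positive values pointing away from the Idh1 gene body, for the 4 libraries. The c-Maf peaks of 12 and 9 tags cover the Idh1 start and end before Pikfyve, and the isotype libraries had no peak in the span shown.

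The start of Idh1 is shared ground. Pikfyve, which encodes a lipid kinase of endosomes, has a gene span that begins 161 bp away at 65186640 and is read the opposite way. The region covered by the Idh1 peaks ended 58 bp short of it, and the summits lay 132 bp (c-Maf library 3) and 145 bp (c-Maf library 4) from it. They were nearer to Idh1, but at this spacing a peak cannot be assigned to one of the genes. The listed Pikfyve start window, set on a start at 65186685 and not on the span, holds the same peaks.

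Peaks at start windows were rare in every list. Of 21262 start windows of protein-coding genes, 0.56% were touched by a peak of c-Maf library 3 and 0.301% by one of c-Maf library 4, against 0.607% and 0.165% for isotype libraries 3 and 4. The lists held 23434 and 17620 peaks against 58732 and 15568, and the shares are not adjusted for these lengths. A merged stretch that both c-Maf lists hold and neither isotype list holds is called a c-Maf-only region, and the reverse an isotype-only region. Windows with a c-Maf-only region numbered 13 (0.0611%), from 12 genes, and those with an isotype-only region numbered 1 (0.0047%). Idh1 and Pikfyve make up 2 of the 13. Among the isocitrate dehydrogenase genes, 4 have a listed start window, with no entry for Idh3a, and Idh1 alone of the 4 had a peak of any library there. The Idh2 window lies inside its gene span, and no library had a peak within 5 kb of a boundary of Idh2. Windows facing another start within 1000 bp had a c-Maf-only region in 2 of 1694, which are the Idh1 and Pikfyve windows themselves, and the divergent windows of Idh3g and its neighbour Ssr4 had no peak of any library.

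The bases under both Idh1 peaks were 63.1% G or C and held 3 CpG and a run of 12 C. The run lay 28 to 39 bp upstream of the start, and the summit of c-Maf library 3 fell within it. The whole Idh1 window was 62.0% G or C, against a median of 56.3% over all windows, and held 23 CpG against a median of 13. A run of 12 or more C or G occurred in 1.47% of all windows. It occurred in 4 of 119 windows with a peak in c-Maf library 3, and in 4 of 64 in c-Maf library 4, against 1 of 129 and 0 of 35 in isotype libraries 3 and 4. Idh1 and Pikfyve share the one run, and without them the counts were 2 of 117 in c-Maf library 3 and 2 of 62 in c-Maf library 4. Of the 13 windows with a c-Maf-only region, 3 held such a run, those of Idh1, Pikfyve and Btaf1. The part of the run in the Idh1 peaks was not tested.

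The half-site of the Maf recognition element, TGCTGA, and the core shared with AP-1 sites, TGANTCA, were searched on both strands. Neither was found in the Idh1 window, which contains the whole of both peaks, nor at the second listed Idh1 start, on chromosome 1 at 65179093 to 65179392, nor in the windows of Idh3b and Idh3g. The Idh2 window had 1 TGCTGA match, shown in capitals above, read on the opposite strand. Over all windows, 18.1% held TGCTGA and 6.99% held TGANTCA. The motifs can overlap each other where a full element is present. A missing match says only that these letters are not in these windows.

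Around the mitochondrial genes no peak of one library overlapped a peak of another. In all, 17 peaks lay in or within 50 kb of the 5 genes, 9 from the c-Maf libraries and 8 from the isotype libraries. The 15 that were not at the Idh1 start held 3 to 7 tags, with fold enrichments of 2.75 to 4.97, and none had a q of 0.05 or smaller. The smallest q among them was 0.141. Of these 15 peaks, 3 lay inside the gene for which they were collected, 10 inside another protein-coding gene and 2 between genes. No 2 of the 15 overlapped.

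**Figure D2:**
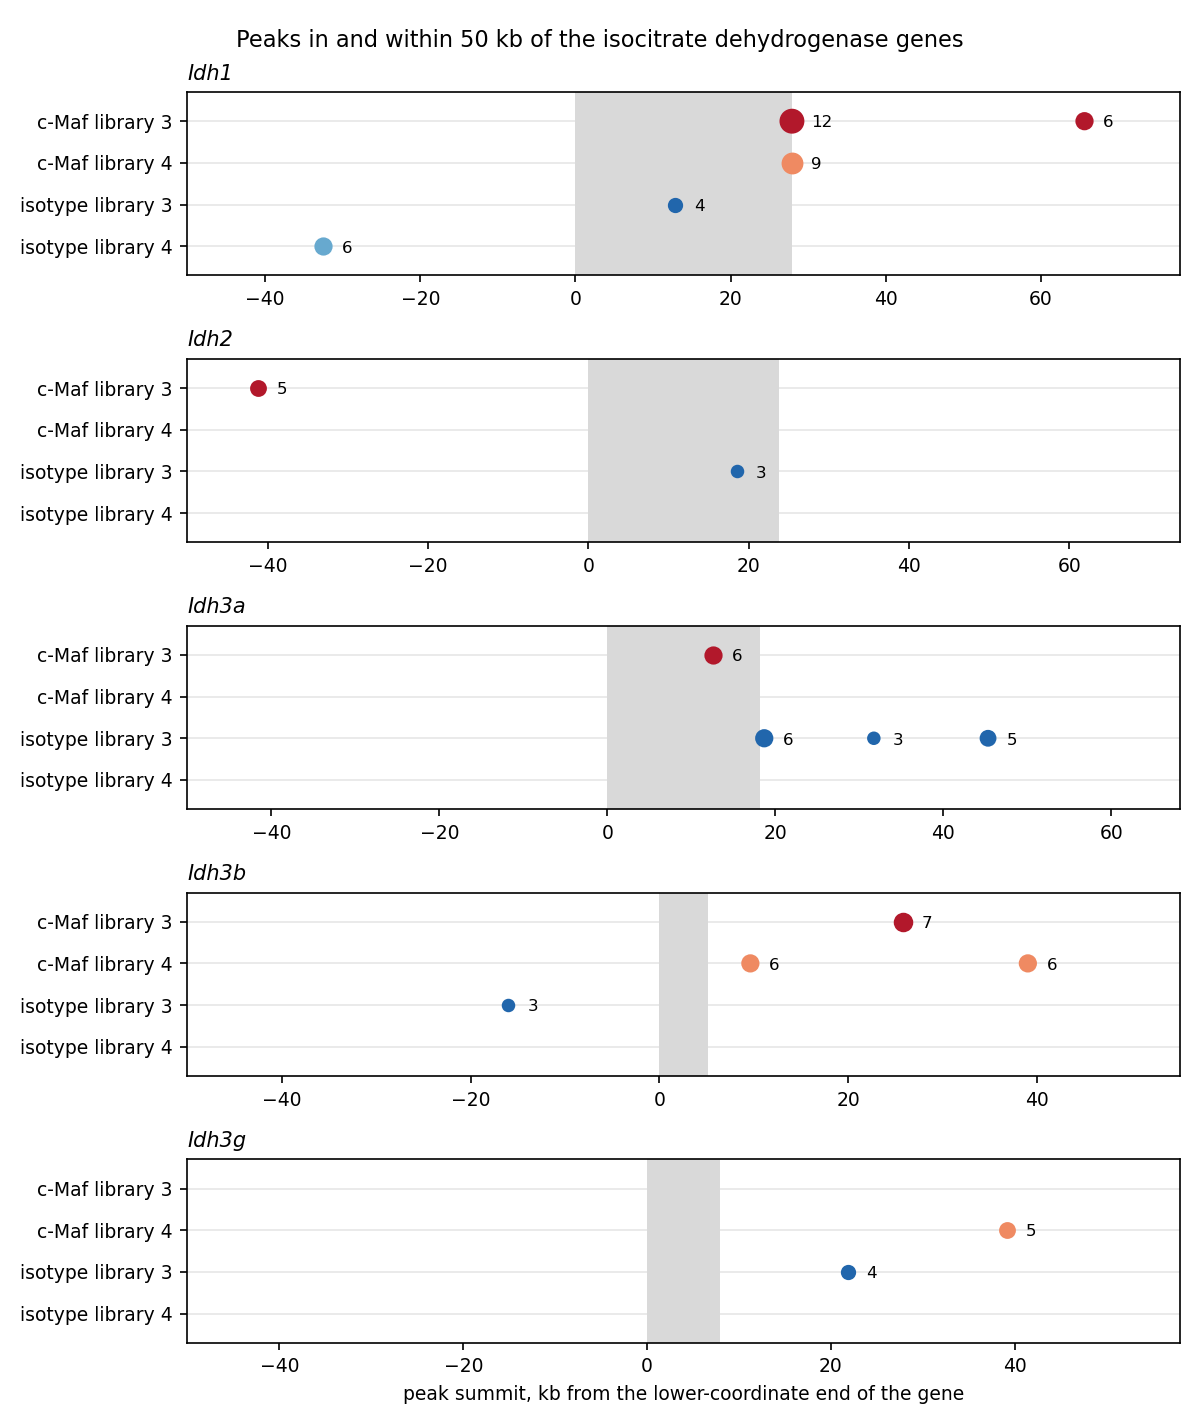
Each point is a peak summit, placed by its distance in kb from the lower-coordinate end of the gene, with the gene shaded, 50 kb shown on each side, and 1 row per library. Point size and the number beside it give the tags at the summit. Only at Idh1 do peaks of both c-Maf libraries coincide.

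Idh2 spans 80094845 to 80118608 on chromosome 7. In c-Maf library 3 there was 1 peak, 41.2 kb away inside Zfp710, a zinc finger gene, with 5 tags (1.62 to 11.7) and a fold enrichment of 3.59, and in c-Maf library 4 there was none. Isotype library 3 had 1 peak inside Idh2, at 80113368 to 80113452, with 3 tags (0.619 to 8.77) and a fold enrichment of 2.76, and isotype library 4 had none. The one peak inside Idh2 was thus an isotype peak.

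Idh3a, which encodes the catalytic subunit of IDH3, spans 54586511 to 54604662 on chromosome 9. A peak of c-Maf library 3 lay inside it at 54599005 to 54599073, 5.59 kb from a boundary, with 6 tags (2.2 to 13.1) and a fold enrichment of 3.75. No peak of c-Maf library 4 was found. Isotype library 3 had 3 peaks, all inside the neighbouring acyl-CoA synthetase gene Acsbg1, with 3 to 6 tags, and isotype library 4 had none. The closest of these isotype peaks lay just outside Idh3a, 0.517 kb from its boundary, with 6 tags (2.2 to 13.1) and a fold enrichment of 4.65.

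Idh3b, a regulatory subunit gene, spans 130279309 to 130284451 on chromosome 2 and was the only mitochondrial member with peaks of both c-Maf libraries within 50 kb. In c-Maf library 3 there was 1 peak, at 130305106 to 130305168, 20.7 kb away, with 7 tags (2.81 to 14.4), a fold enrichment of 4.97 and a q of 0.141. In c-Maf library 4 there were 2 peaks of 6 tags (2.2 to 13.1) each, 4.5 kb and 33.9 kb away, with fold enrichments of 4.68 and 4.49. The peak of c-Maf library 3 was 16.1 kb from one of these and 13.2 kb from the other, so the libraries did not point to a common place. The peaks at 20.7 kb and 33.9 kb lay inside Ebf4, a transcription factor gene. Isotype library 3 had 1 peak of 3 tags, 16.0 kb away inside Tmc2, and isotype library 4 had none.

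Idh3g, the other regulatory subunit gene, spans 73778963 to 73786897 on chromosome X. No peak was found in c-Maf library 3. A peak of c-Maf library 4 lay 31.2 kb away, with 5 tags (1.62 to 11.7) and a fold enrichment of 2.97. Isotype library 3 had 1, 13.9 kb away, with 4 tags (1.09 to 10.2) and a fold enrichment of 3.46, and isotype library 4 had none. Both peaks lay inside Pdzd4.

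Besides the peaks at its start, Idh1 had 3 others within 50 kb. The second peak of c-Maf library 3 lay 37.7 kb away inside Pikfyve, with 6 tags (2.2 to 13.1) and a fold enrichment of 3.41. Isotype library 3 had a peak inside Idh1, at 65171454 to 65171506, with 4 tags (1.09 to 10.2) and a fold enrichment of 3.43. Isotype library 4 had a peak 32.5 kb away, 2.7 kb from D630023F18Rik, with 6 tags (2.2 to 13.1) and a fold enrichment of 4.37. These 3 peaks stood within the 3 to 7 tags seen at the mitochondrial genes.

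**Figure D3:**
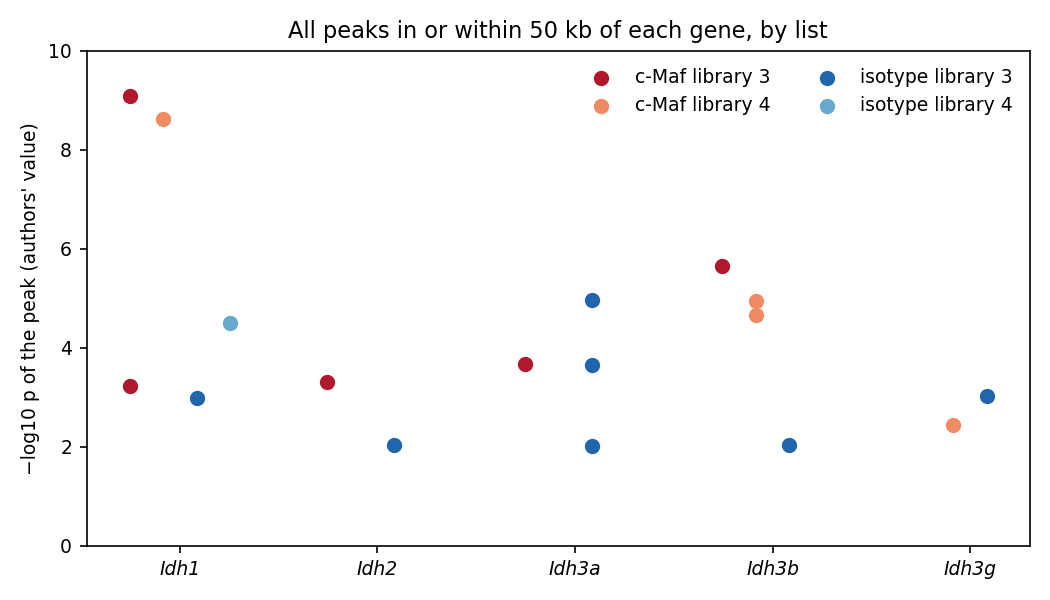
The −log10 p that the authors' caller gave to each of the 17 peaks (points), by gene and coloured by library. The Idh1 start peaks stand at 9.08 and 8.62 in the c-Maf libraries, and all others at 5.64 or below.

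Counts of peaks around these genes were set beside those around all genes, list by list. In c-Maf list 3, 4 of 5 had a peak in the gene or within 50 kb, against 66.7% of all protein-coding genes, and in c-Maf library 4, 3 of 5, against 53.8%. It was 5 of 5 in isotype library 3, against 85.0%, and 1 of 5 in isotype library 4, against 47.3%. Peaks of both c-Maf libraries were found within this window for 2 of 5 genes, Idh1 and Idh3b, against 39.2% of all genes, and peaks of both isotype libraries for 1 of 5, Idh1, against 42.5%. In these lists a peak within 50 kb is common to many genes, and nothing particular to the isocitrate dehydrogenases is read from these counts.

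Per 100 kb of window, the 5 genes had 0.858 peaks (0.279 to 2.0) in c-Maf library 3 and 0.686 (0.187 to 1.76) in c-Maf library 4, against 0.958 and 0.667 over the windows of all genes. The density was 1.2 (0.483 to 2.47) in isotype library 3 and 0.172 (0.00434 to 0.956) in isotype library 4, against 2.09 and 0.572. The intervals are wide, and the c-Maf densities include the start peaks for which Idh1 was singled out. Nothing is therefore read from how these densities compare with those of all genes. The members' windows were 105 to 128 kb long. The farthest peak inside the 50 kb limit was the one at 41.2 kb from Idh2, and the nearest beyond it was a peak of isotype library 3, 51.1 kb from Idh3a with 4 tags.

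**Figure D4:**
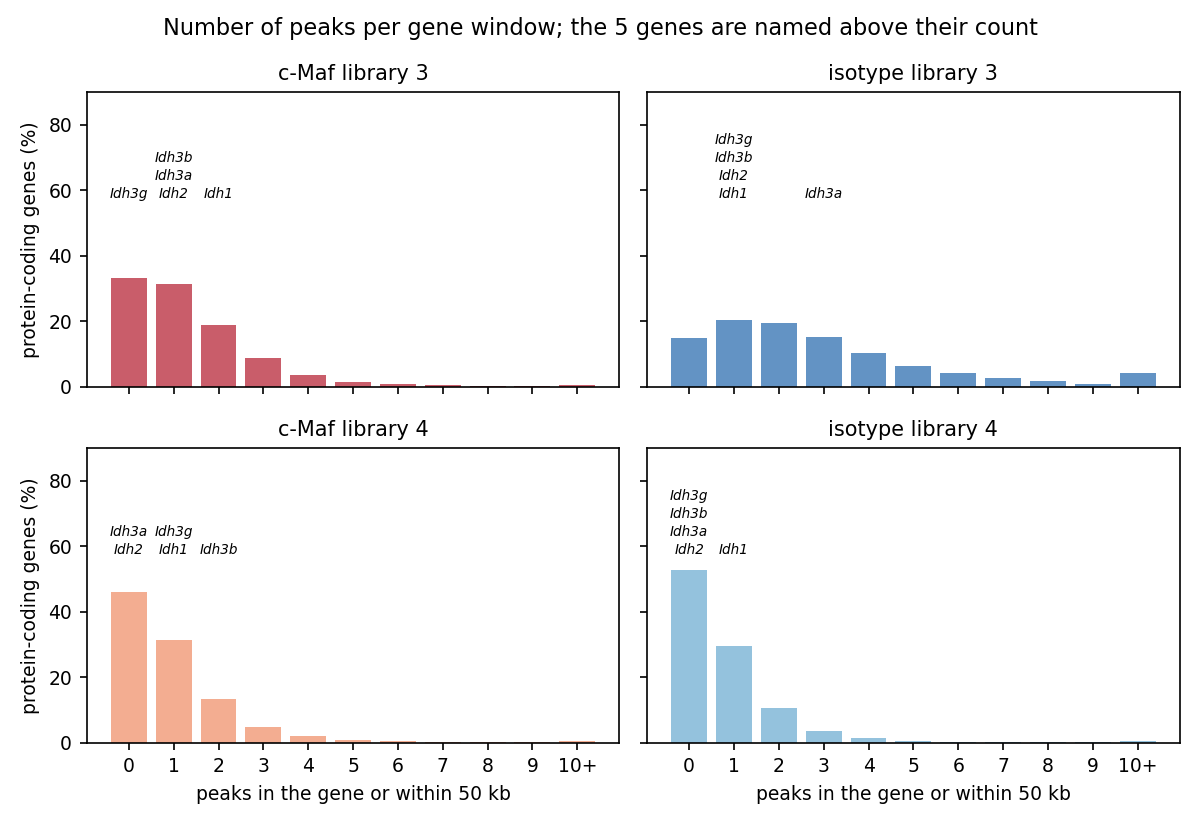
Bars give the share of all 21883 protein-coding genes (%) with each number of peaks in the gene or within 50 kb, 1 panel per library, with 10 or more joined. The 5 gene names stand above their own counts, and all lie between 0 and 3 peaks.

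Closer to the genes, Idh1 was the only member with both c-Maf lists at one place. Within 5 kb of a gene boundary, a peak of c-Maf library 3 was found for 1 of 5 genes, Idh1, against 14.9% of all genes, and one of c-Maf library 4 for 2 of 5, Idh1 and Idh3b, against 9.93%. Isotype library 3 had one for 1 of 5, Idh3a, against 25.6%, and isotype library 4 for 0 of 5, against 8.26%. The c-Maf-only region at Idh1 made 1 of 5 members at each distance, against 0.151% of all genes within 1 kb of a boundary, 0.558% within 5 kb, and 3.17% in the gene or within 50 kb. Isotype-only regions were found for 0 of 5 at each distance, against 0.0594%, 0.196% and 1.45% of all genes. Idh1 was singled out for its boundary peaks, so nothing is read from its share.

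Regions of this kind that overlap a gene boundary were few. They lay at 7 genes, 0.032% of all, and fold enrichments at these 7 regions ranged from 2.77 to 6.32 in c-Maf library 3 and from 2.97 to 6.68 in c-Maf library 4. Idh1 had the highest value in each library, and its region was the 1 of 7 with a q of 0.05 or smaller in both. It was singled out for these peaks with results known, so nothing is read from its place among the 7. The other regions were ordered by the summed difference in log2 fold enrichment from the Idh1 region over the 2 c-Maf libraries. The smallest differences lay at C1qb, which encodes a chain of complement component C1q (0.668), and at Pepd, the prolidase gene (1.21). Next came Rftn1, which encodes a lipid raft protein (1.23), Tctex1d4 (1.29) and Ppp1r17 (1.43). All but 1 of the other regions are thus named, so the order selects little. Among those named, only Tctex1d4 had a q of 0.05 or smaller, and in c-Maf library 3 alone. There its −log10 q was 2.35 and its fold enrichment 5.84. The fold enrichments at C1qb were 5.38 and 4.94, and at Pepd 3.90 and 4.68, in c-Maf libraries 3 and 4.

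The genes around isocitrate and alpha-ketoglutarate were described in 4 lists with 78 distinct genes. A c-Maf-only region near a boundary (5 kb) was found at 1 of the 78, Idh1, against 0.558% of all genes, and an isotype-only region at 0 of the 78, against 0.196%. At these shares few or no regions would be seen in 78 genes, so nothing is read from either count. The lists were the citric acid cycle (0 of 19), NADPH-producing enzymes (1 of 16, Idh1), enzymes and carriers of citrate and alpha-ketoglutarate (0 of 21) and alpha-ketoglutarate-dependent dioxygenases (0 of 23), and the 1 is the gene singled out beforehand. Peaks of single libraries within 5 kb were found for 12 of the 78 genes (15.4%) in c-Maf library 3 and for 9 (11.5%) in c-Maf library 4, against 14.9% and 9.93% of all genes. They were found for 19 (24.4%) in isotype library 3 and 6 (7.69%) in isotype library 4, against 25.6% and 8.26%. These shares lay within a few percentage points of the shares over all genes.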

How the data were processed

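Per the file headers, the authors called peaks for each library with MACS 2.1.1.20160309 at a p-value cut-off of 0.01, with 1 tag kept per position, the larger library scaled towards the smaller, the single input library of 21370300 tags as control and the human genome size setting. The submitters' processing notes name mm10, FastQC, MACS 1.4.2 and MACS2, and give no aligner that could be used here. The deposited signal is the pileup at the summit, the deposited ratio is the fold enrichment, and the deposited −log10 values are those of p and q.

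Pileups divided by the scaling of each library were whole tags within 0.02 tags for every peak. Input levels were taken from pileup and fold enrichment, and for 99.99% of peaks or more a p-value recomputed from them lay within 0.02 of the authors' −log10 p. Peaks overlapping by at least 1 bp were merged. Gene spans and start windows came from RefSeq tables of GRCm38.p6. The planned protein comparison was not made, since no protein sequences were used here. Python 3.11.15, pandas 2.3.3 and scipy 1.17.1 were used, and interval counts were tested on simulated data. Pairs of 2 libraries allow only 3 splits, so libraries were not tested against each other and values are descriptive. The members, gene lists and rules were chosen with earlier results of these data known. Named genes are the members, the genes nearest to their peaks, list genes with a c-Maf-only or isotype-only region within 5 kb, and the 5 genes most like Idh1 in boundary fold enrichment. Ssr4 and Btaf1 were named outside this rule, after their values were seen. The share of windows with a C or G run was also added then.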

Additional observations from a re-analysis of the deposited data

How the results depend on the processing

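The region at the Idh1 start, which was selected for its peaks, was found at p of 1e-5, q of 0.05, equal list lengths of 15568, 50% reciprocal overlap and summits within 200 bp. The p, q, ranks, extents and summits already given for the selected peaks fix these outcomes, so they add no separate support. Windows of 1 kb and 50 kb, a library left out and the replicate block could not lose it, since it overlaps the boundary and those settings keep or loosen the definition, so they say nothing about its stability. The count of the 5 genes with a c-Maf-only region ranged from 1 to 2 with a library left out. It was 2 without c-Maf library 3, where Idh3b joins on a peak of c-Maf library 4 alone. The count with an isotype-only region ranged from 0 to 1, and was 1 without isotype library 4, through the isotype library 3 peak near Idh3a. The share of all genes with a c-Maf-only region was 0.151% within 1 kb, 3.17% within 50 kb, 0.142% with peaks limited to p of 1e-5, 0.0685% with peaks limited to q of 0.05 and 0.343% at 50% reciprocal overlap. It ranged from 0.589% to 14.5% with a library left out, since 1 remaining list has no replicate to filter it. With the number as a replicate block, only a library of the same number and the other antibody removes a peak. The counts over the 5 genes were then 1 and 0, and no call among them changed. Over all genes, 123 had a c-Maf-only region (0.562%) against 122 as reported, and 44 an isotype-only region against 43.

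Peaks within 50 kb of the 5 genes numbered 5 in c-Maf list 3, 4 in c-Maf list 4, 7 in isotype list 3 and 1 in isotype list 4. In that order they were 2, 1, 0 and 0 at p of 1e-5, then 1, 1, 0 and 0 at q of 0.05. They were 3, 3, 1 and 1 at equal list lengths, 2, 2, 3 and 0 within 10 kb, and 9, 6, 18 and 2 within 100 kb. Stricter settings and narrower windows keep fewer peaks by construction. Of the 5 start windows of these genes, 1 held TGCTGA and 0 held TGANTCA. Summits of 3 to 12 tags limit every value given here.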
